A study of Homo sapiens with 6 samples.

Results

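The interferon-stimulated genes described here were 43 genes given by symbol, from the RNA sensors and the IFIT, OAS and IFITM families to the enzymes of the ISG15 system. All 43 symbols were found among the 33007 genes of the deposited count table, and 40 of them were among the 18390 genes with enough reads to test. The genes were measured by RNA sequencing in LM3 cells, a human hepatocellular carcinoma (HCC) line labelled wild type in genotype, as 3 vector control samples and 3 samples with stable knockdown of ZNF706, a C2H2 zinc finger protein. Per the study's methods, the knockdown line was made with a pLKO.1 lentiviral short hairpin RNA and puromycin, and the hairpin that was sequenced was not given in the sources used here. No label says that the 3 samples of a group came from separate cultures, so the p-values measure the spread between these samples, which may be technical. Total counts were 62684076, 64713764 and 63054445 in the controls and 68548419, 65861994 and 69057423 in the knockdown, so every knockdown sample was deeper than every control. The ZNF706 count was 3211, 3504 and 3357 in the controls against 2350, 2068 and 2298 in the knockdown (log2 fold change -0.73, SE 0.050, edgeR adjusted p = 3.7e-05).

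Interferons are secreted cytokines that cells release when their sensors detect viral RNA or misplaced DNA. Type I and type III interferons act through receptors coupled to the kinases JAK1 and TYK2, and a complex that holds STAT2 and IRF9 then binds the interferon-stimulated response element (ISRE) in the promoters of its target genes. Interferon gamma acts mainly at another element, the gamma-activated sequence (GAS), and many of the induced proteins block viral entry, translation or genome copying, or hold the response itself in check.

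Letters that match the core of the ISRE stood in the promoters of many of these genes. The stretches below are shown because they carry such matches. Promoter windows of 300 bases, 250 before and 50 from the transcript start, were taken from RefSeq on GRCh38.p14 and matched 34 of the 43 genes. The ISRE core was searched as the letters GAAA, any 2 bases, and GAAA again, or TTTC, any 2 bases, and TTTC for the other strand, where matches may overlap each other. Capitals mark the core matches that lie wholly before the transcript start, and each stretch is written 5′ to 3′ on the strand of its gene. IFIT1 (chr10:89392497-89392539, + strand), IFIT3 (chr10:89327831-89327894, + strand), ISG15 (chr1:1013374-1013409, + strand) and IFI44 (chr1:78649761-78649788, + strand) were higher in the knockdown.
IFIT1: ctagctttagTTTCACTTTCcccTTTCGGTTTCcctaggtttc
IFIT3: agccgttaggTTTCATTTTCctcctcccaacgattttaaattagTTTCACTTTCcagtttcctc
ISG15: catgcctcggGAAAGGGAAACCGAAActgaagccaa
IFI44: gcacactgagTTTCAGTTTCctttctct

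The next 4 stretches come from genes that were lower in the knockdown, namely IFITM1 (chr11:313990-314019, + strand), GBP1 (chr1:89065316-89065345, - strand), IFI6 (chr1:27672266-27672358, - strand) and IFI44L (chr1:78620274-78620394, + strand). The same core letters stand in both sets, and IFI6 carried 3 core matches in its stretch. Matches that cross or follow the start are not shown, namely a further one of IFITM1 and those of EIF2AK2 and MX1, which were also lower. By the gene spans of the deposited table, the ISG15, IFITM1 and IFI44L stretches lie inside their own gene, and the other 5 lie before it.
IFITM1: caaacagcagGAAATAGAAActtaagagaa
GBP1: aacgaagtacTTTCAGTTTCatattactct
IFI6: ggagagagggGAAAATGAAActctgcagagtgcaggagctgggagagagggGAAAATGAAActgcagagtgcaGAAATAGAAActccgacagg
IFI44L: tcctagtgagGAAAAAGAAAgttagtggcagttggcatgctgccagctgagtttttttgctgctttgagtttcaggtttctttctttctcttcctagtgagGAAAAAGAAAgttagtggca

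Of the 34 promoters, 20 (58.8%) held at least 1 ISRE core, beside 3.57% of 35116 RefSeq promoters and 2.79% of the 11360 tested genes with a window. The GAS letters TTCNNNGAA, which read the same on both strands, were found in 8 of the 34 (23.5%), beside 7.66% of all promoters and 6.29% of tested genes. Split by what the genes did in the knockdown, the ISRE core was in 4 of 5 promoters of genes called higher, 6 of 7 of genes called lower and 10 of 20 of tested genes that were not called. The GAS letters were in 0 of 5, 1 of 7 and 7 of 20 promoters of these sets. A match describes letters in a window and says nothing of binding in LM3 cells.

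LM3 cells carried high levels of a few of these transcripts, and the labels name no interferon treatment. On the deposited FPKM scale, which is per transcript length and so allows genes to be compared, IFITM3 was highest at 381 ± 12.3 in the controls and 386.3 ± 7.64 in the knockdown (SD, n = 3). BST2, which tethers budding virus to the cell membrane, followed at 157.9 ± 4.64 and 174.1 ± 9.67 FPKM, and IFITM2 at 91.4 ± 3.50 and 99.0 ± 5.68 FPKM. ISG15 (77.9 ± 6.31 and 93.5 ± 7.65 FPKM), OASL (55.2 ± 7.25 and 70.9 ± 3.44) and IFITM1 (63.3 ± 1.79 and 54.4 ± 3.49) formed the next tier, ahead of IFIT3 and IFIT2. OASL and IFITM1 changed places in this order, since OASL was below IFITM1 in each control and above it in each knockdown sample. IFITM1, IFITM2, IFITM3 and BST2, which act at membranes, held 70.3%, 69.1% and 72.2% of the summed FPKM of the 43 genes in the controls and 67.4%, 67.1% and 67.3% in the knockdown.

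**Figure D1:**
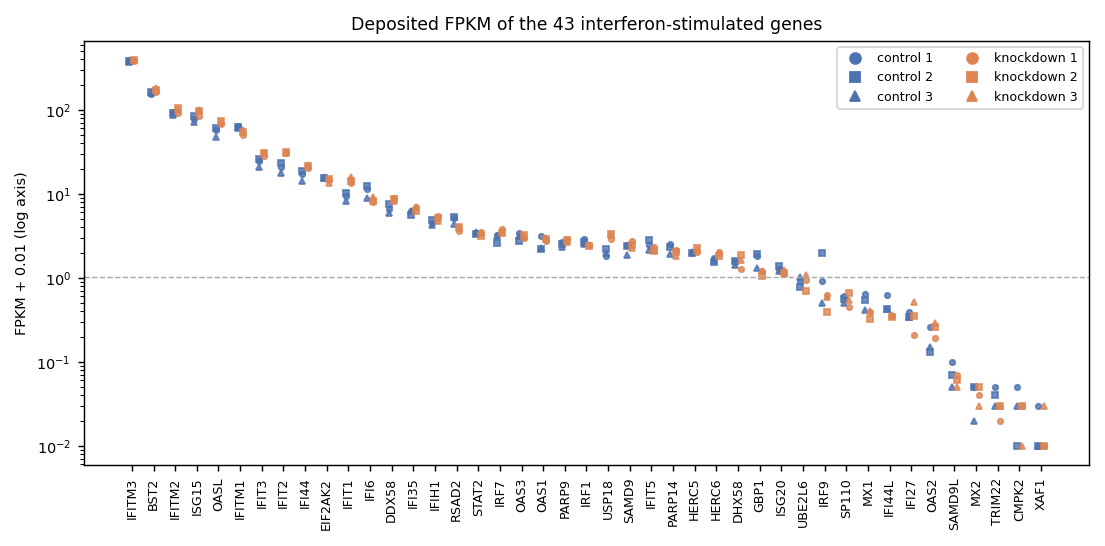
FPKM of each of the 43 interferon-stimulated genes (x axis, ordered by mean) in each of 3 control and 3 knockdown samples, on a log axis of FPKM + 0.01, with a dashed line near an FPKM of 1. Levels run from IFITM3, near 384 FPKM on average, to XAF1, CMPK2 and TRIM22, which lay near 0, and the samples of both groups lie close together for most genes.

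At the other end of the scale, 3 genes had too few reads to test. CMPK2, a mitochondrial nucleotide kinase, had 13, 0 and 6 counts in the controls and 8, 7 and 0 in the knockdown. XAF1, a pro-apoptotic protein, had 9, 0 and 0 against 2, 0 and 10 counts, and TRIM22, a ubiquitin ligase that restricts viruses, had 16, 12 and 8 against 6, 8 and 8 counts. In each sample 31 or 32 of the 43 genes reached an FPKM of 1. The FPKM summed over all 43 was 1002, 1014 and 936.7 in the controls and 1017, 1080 and 1086 in the knockdown. On this scale the lowest knockdown sample lay just above the highest control. FPKM lacks the TMM scaling factors of the tests below, which were 0.974 to 0.988 in the controls and 1.014 to 1.024 in the knockdown. IFITM3, the largest part of the sum, averaged slightly more FPKM in the knockdown but less TMM-scaled CPM (508.4 against 498.4). The order of these sums may thus depend on the scaling.

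The labelled cell type was only partly borne out by marker genes. In the epithelial list the keratins KRT18 and KRT8 were abundant, at 265.8 and 196.3 FPKM on average over the 6 samples. EPCAM (0.178) and CDH1 (0.375) were near absent. The FPKM summed over these 4 genes was 452.5, 458.9 and 479.5 in the controls and 450.7, 466 and 468.4 in the knockdown. The hepatocyte list (ALB, AFP, APOA1, APOB, TTR, HNF4A, GPC3 and SERPINA1) was near absent, at a summed FPKM of 3.60, 8.09 and 9.60 against 3.96, 4.13 and 2.71. Within it the albumin count was 189, 899 and 882 in the controls and 587, 635 and 138 in the knockdown. Control 1 and knockdown 3 were both lowest in their groups for ALB, AFP, TTR and GPC3, and also for EPCAM of the epithelial list. This did not hold for APOA1, APOB, HNF4A and SERPINA1. SERPINA1 (log2 fold change -1.47, edgeR adjusted p = 0.0034) and APOB (-0.98, edgeR adjusted p = 0.021, and up to 0.087 without control 2, control 3, knockdown 1 or knockdown 3) were lower in the knockdown.

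Blood cell genes, which also express interferon-stimulated genes strongly, were examined in the same way. PTPRC, the defining leukocyte gene, had 8, 8 and 0 counts in the controls and 0 in each knockdown sample, CD3E was not analysed here, and NKG7 had 0 counts in every control and 0, 6 and 9 in the knockdown. The summed FPKM of the leukocyte list was nevertheless higher in the knockdown, at 22.6, 23.7 and 23 against 14.94, 15.04 and 14.97. Most of it came from CD68, a lysosomal protein with the highest level in this list (log2 fold change 0.64, edgeR adjusted p = 0.00011), and CSF1R also rose (0.49, edgeR adjusted p = 0.003). In the stromal list the summed FPKM was 8.42, 8.33 and 8.63 in the controls against 10.2, 10.5 and 10.4. COL1A1 (0.20, edgeR adjusted p = 0.0023) and PDGFRB (0.68, edgeR adjusted p = 0.003) were higher. PECAM1 (0.15, edgeR adjusted p = 0.54) and DCN (-0.04, edgeR adjusted p = 0.97) were not called, and VWF was at or near 0. COL1A2 had 117, 8 and 0 counts in the controls and 0, 0 and 119 in the knockdown. It was thus highest in control 1 and knockdown 3, the samples that were lowest for ALB. The part of these markers in the results below was not tested.

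The control samples were not alike for these genes. Control 3 was the lowest of the 3 controls for 27 of the 40 tested genes (67.5%), where it was lowest for 33.0% of all tested genes, and its median distance from the control mean over the 40 genes was -0.12 on the log2 scale. Control 1 was lowest for 2 of the 40 and control 2 for 11. In the knockdown, sample 1 was lowest for 21 of the 40 (52.5%). This spread entered the standard errors below, and for the genes called here the samples whose removal ended the call are named.

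Between the knockdown and control samples, these genes differed in both directions. With edgeR's quasi-likelihood test, adjusted by Benjamini-Hochberg over all 18390 genes, 15 of the 40 tested genes (37.5%) passed an adjusted p of 0.05, beside 22.8% of all genes. Higher in the knockdown were 8 of the 40, beside 10.4% of all genes, and lower were 7, beside 12.4% of all genes. The median log2 fold change of the 40 was -0.006, close to the 0.010 of all genes, with 20 genes above 0 and 20 below, and values ran from -1.12 to 0.60. The groups did not overlap for 18 of the 40 (45%), beside 39.4% of all genes tested, and for 14 of the 15 called genes. The share of called genes was above that of all genes with all 6 samples in the fit, but not in every fit without 1 sample, and no test of that difference was made.

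These counts depended on single samples. Without control 1 the calls were 4 higher and 2 lower (15% of the genes tested, beside 17.6% of all genes in that fit), without knockdown 2 they were 3 and 3 (14.6% beside 13.9%), and without knockdown 3 they were 4 and 3 (17.1% beside 17.5%). The share was thus at or near that of all genes in these 3 fits. Leaving out control 2 gave 8 and 3 (27.5% beside 16.4%), control 3 gave 5 and 7 (29.3% beside 16.2%), and knockdown 1 gave 7 and 4 (26.8% beside 18%). Under library size scaling the split was 9 higher and 3 lower, and all genes then split into 2742 higher and 1518 lower, against 1906 and 2286 with TMM scaling. In bulk RNA, fewer cells that express a gene and less of its RNA per cell cannot be told apart.

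**Figure D2:**
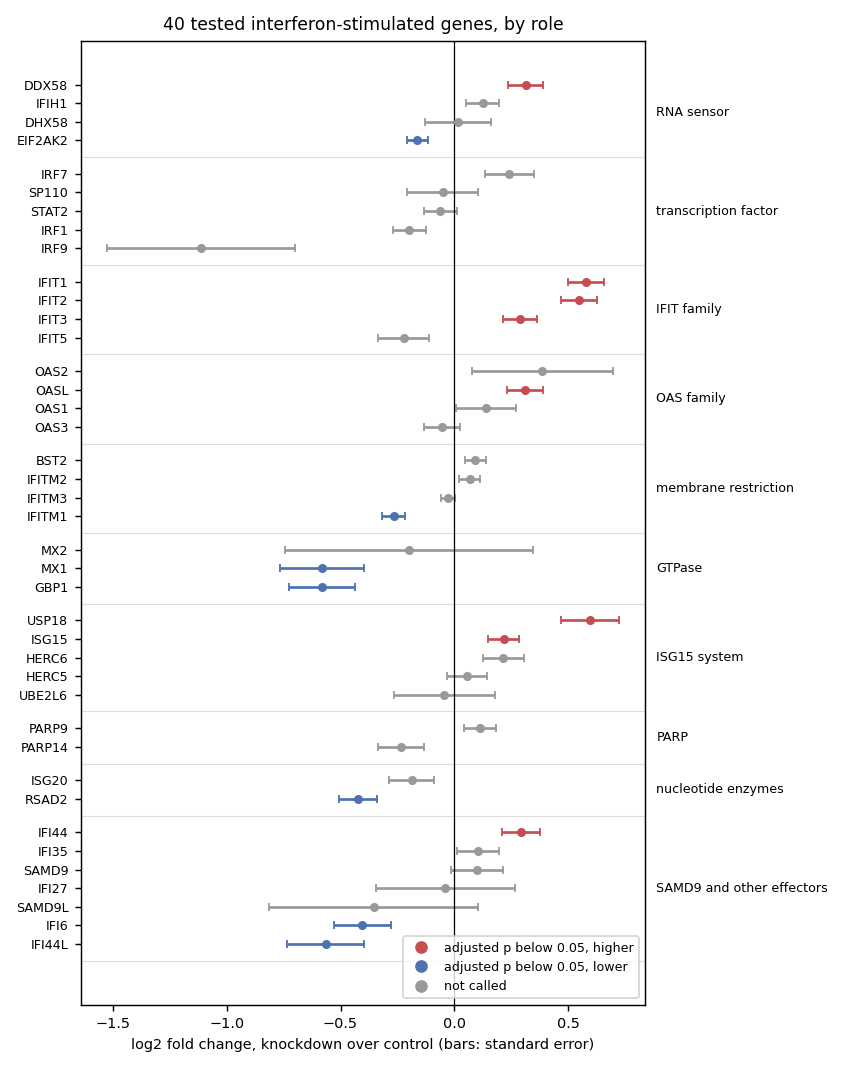
Log2 fold change (x axis, knockdown over control, bars are the standard error) of the 40 tested interferon-stimulated genes, grouped by role. The 8 genes called higher reach 0.60 (USP18), the 7 called lower reach -0.58 (MX1 and GBP1), and most role groups hold points on both sides of 0.

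The IFIT proteins bind viral RNA that lacks the host's cap methylation and block its translation. The 4 IFIT genes lie side by side on chromosome 10 (GRCh38), IFIT2 at chr10:89283694-89309271, IFIT3 at chr10:89327997-89340971, IFIT1 at chr10:89392546-89406487 and IFIT5 at chr10:89414568-89420997, all on the + strand. IFIT1, IFIT2 and IFIT3 rose in the knockdown, and IFIT5 did not pass the test. In CPM, the count scaled to the size of its library after TMM normalization, IFIT1 was 49.3, 55.0 and 44.9 in the controls and 68.8, 72.8 and 81.3 in the knockdown. The groups did not overlap, and the log2 fold change was 0.58 (SE 0.079, edgeR adjusted p = 0.00089). IFIT2, at 96.9, 110.5 and 84.1 CPM against 140, 144.7 and 141.8, was nearly as far apart (0.55, SE 0.079, edgeR adjusted p = 0.0012), and its 3 knockdown samples lay within a few CPM of each other.

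IFIT3 rose less. Its level was 71.1, 77.2 and 61.3 CPM in the controls and 80.3, 87.9 and 87.7 CPM in the knockdown (log2 fold change 0.29, SE 0.075, edgeR adjusted p = 0.021). Control 2 lay just below knockdown 1, and the call was lost without control 1, control 3, knockdown 2 or knockdown 3, with an edgeR adjusted p of up to 0.085. IFIT5 had 11.3, 13.0 and 10.1 CPM against 10.4, 9.29 and 9.76, and the groups overlapped (-0.22, SE 0.11, edgeR adjusted p = 0.2). IFIT1, IFIT2 and IFIT3 each share bases with LIPA, a lysosomal lipase gene on the opposite strand, which IFIT5 does not. LIPA was itself higher, at 1880, 2009 and 2022 counts against 2972, 2882 and 3029 (0.44, edgeR adjusted p = 0.00036). Whether counting used strand was not given in the sources used here, so reads of LIPA and of the IFIT genes cannot be told apart where they overlap.

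ISG15 is a small protein that is attached to other proteins much as ubiquitin is, by UBE2L6 as the conjugating enzyme and HERC5 as the ligase, and USP18 takes it off again and also dampens the type I receptor. USP18 rose the furthest among the 40 genes. It had 3.89, 4.78 and 4.27 CPM in the controls and 6.05, 6.86 and 6.67 in the knockdown, with no overlap (log2 fold change 0.60, SE 0.13, edgeR adjusted p = 0.0091). Its near-identical copy USP41 had 11, 18 and 0 counts against 2, 0 and 25, against 241 to 467 counts of USP18, and reads common to both copies cannot be told apart.

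ISG15 itself had 78.4, 84.2 and 72.2 CPM in the controls against 82.4, 94.1 and 96.3 (log2 fold change 0.22, SE 0.069, edgeR adjusted p = 0.048). It was the one called gene whose groups overlapped, since knockdown 1 lay below control 2, and the call was lost without control 1, control 3, knockdown 2 or knockdown 3 (edgeR adjusted p up to 0.18). The 3 other genes of this system did not pass the test. HERC6 did not overlap between groups, at 11.4, 10.3 and 11.0 CPM against 13.2, 11.8 and 13.0 (0.22, edgeR adjusted p = 0.12), and HERC5 (0.06) and UBE2L6 (-0.04) lay near 0.

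Among the cytoplasmic sensors, RIG-I was called higher and PKR lower, the latter in fewer of the fits. DDX58, which encodes RIG-I, the sensor of short RNA with a triphosphate end, had 35.5, 40.2 and 31.9 CPM in the controls and 46.1, 44.7 and 43.03 in the knockdown. It was higher in each knockdown sample than in any control (log2 fold change 0.31, SE 0.077, edgeR adjusted p = 0.016), and the call was lost without control 1, knockdown 1 or knockdown 2 (edgeR adjusted p up to 0.061). EIF2AK2 encodes PKR, the kinase that stops translation when it binds double-stranded RNA. It fell from 195.6, 190.7 and 193.7 CPM to 175.9, 181.4 and 160.8, without overlap (-0.16, SE 0.045, edgeR adjusted p = 0.028). The call, though not the direction, was lost without control 1, 2 or 3 or knockdown 3 (log2 fold change between -0.20 and -0.11 with 1 sample left out, edgeR adjusted p up to 0.075), and it was also lost under library size scaling (-0.11, edgeR adjusted p = 0.13) and with the GC trend removed (-0.09, edgeR adjusted p = 0.15). GPATCH11, which overlaps EIF2AK2 on the opposite strand, was lower as well (-0.24, edgeR adjusted p = 0.0051). IFIH1, the MDA5 sensor of long RNA (0.12), and DHX58, which encodes LGP2 (0.02), were not called.

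The OAS enzymes make the second messenger that switches on RNase L, whereas OASL has lost that activity and works with RIG-I. OASL was the family member that passed the test. It had 229.5, 251.2 and 194.8 CPM in the controls and 265, 291.4 and 282 CPM in the knockdown, and the lowest knockdown sample was above the highest control (log2 fold change 0.31, SE 0.079, edgeR adjusted p = 0.018). Leaving out knockdown 2 or knockdown 3 ended the call (edgeR adjusted p up to 0.08). OAS1 (0.14, edgeR adjusted p = 0.52), OAS2 (0.39, edgeR adjusted p = 0.43) and OAS3 (-0.05, edgeR adjusted p = 0.68) overlapped between groups.

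The last of the 8 rises was IFI44, a protein with antiviral activity. It had 40.8, 43.8 and 34.3 CPM in the controls against 46.2, 48.9 and 50.7 CPM in the knockdown, without overlap (log2 fold change 0.29, SE 0.082, edgeR adjusted p = 0.028). As with IFIT3, the call needed control 1, control 3, knockdown 2 and knockdown 3 (edgeR adjusted p up to 0.09). Across the 8 genes that rose, control 2 was the highest control in all 8 and control 3 the lowest in 7.

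**Figure D3:**
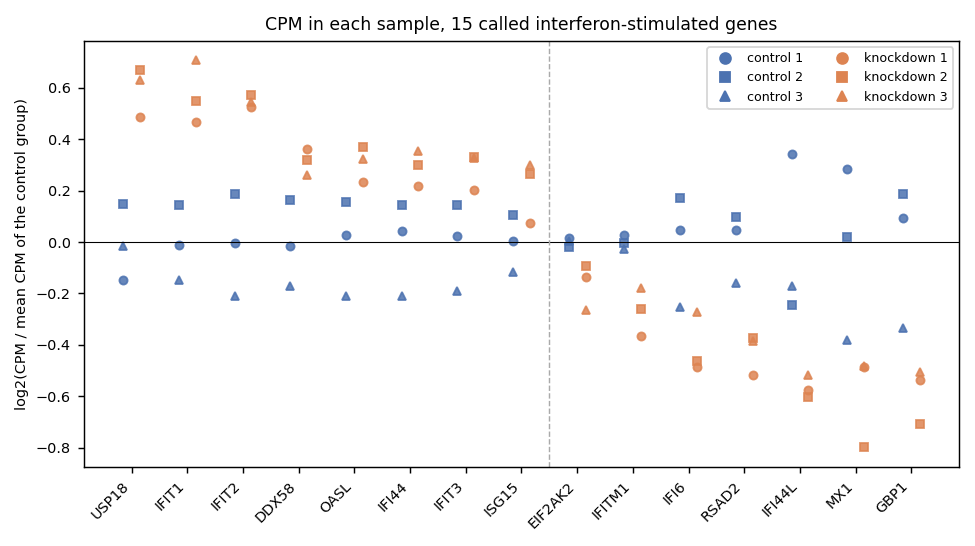
CPM of the 15 called genes in each sample, as log2 of the ratio to the mean of the 3 controls (y axis), 8 higher genes on the left of the dashed line and 7 lower genes on the right. Control 2 (blue square) is the top control for each of the 8 higher genes, and ISG15 is the one gene where a knockdown sample falls inside the control range.

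IFI44L, the neighbour and paralog of IFI44 on chromosome 1, went the other way. Its level was low, at 7.32, 4.88 and 5.13 CPM in the controls and 3.88, 3.80 and 4.03 CPM in the knockdown. Every knockdown sample was below every control, but control 1 stood above the other two (log2 fold change -0.56, SE 0.17, edgeR adjusted p = 0.038). The call held without control 2 and was lost without each other sample in turn, with an edgeR adjusted p of up to 0.12 and a log2 fold change between -0.68 and -0.36. IFI6, a mitochondrial and endoplasmic reticulum protein that protects cells from death, had 10.99, 11.97 and 8.93 CPM against 7.59, 7.71 and 8.80 (-0.40, SE 0.13, edgeR adjusted p = 0.046). Control 3 and knockdown 3 nearly touched, and the call held without control 3 but not without any other sample (edgeR adjusted p up to 0.16).

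The 3 large GTPases all had values below 0, and MX1 and GBP1 passed the test. MX1, which traps the nucleocapsids of influenza and other viruses, had 6.45, 5.36 and 4.06 CPM in the controls and 3.78, 3.04 and 3.79 in the knockdown (log2 fold change -0.58, SE 0.19, edgeR adjusted p = 0.049). Control 3 lay close to the knockdown samples, and the call held without control 3 and was lost without each other sample in turn (edgeR adjusted p up to 0.17). GBP1, a guanylate-binding protein best known as a target of interferon gamma, had 10.1, 10.7 and 7.46 CPM against 6.49, 5.75 and 6.63, with no overlap (-0.58, SE 0.15, edgeR adjusted p = 0.018). Its call was lost without control 1, control 2 or knockdown 2 (edgeR adjusted p up to 0.079). MX2 had 11 to 43 counts in a sample, too few for a change of this size to be seen (-0.20, SE 0.55, edgeR adjusted p = 0.84).

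RSAD2 encodes viperin, which makes a chain-terminating nucleotide. It fell from 28.1, 29.2 and 24.4 CPM to 19.0, 21.1 and 20.9 CPM, and the groups were well apart (log2 fold change -0.42, SE 0.085, edgeR adjusted p = 0.0061). CMPK2, which overlaps it on the opposite strand, had at most 13 counts in a sample. ISG20, an RNA exonuclease, had 10.4, 11.4 and 9.97 CPM against 8.983, 9.004 and 9.93 and missed the threshold (-0.19, edgeR adjusted p = 0.22).

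The IFITM proteins sit in membranes and hinder the fusion of virus with the cell. IFITM1 fell, with 70.1, 68.5 and 67.4 CPM in the controls and 53.2, 57.3 and 60.7 CPM in the knockdown (log2 fold change -0.27, SE 0.050, edgeR adjusted p = 0.0043). The 3 controls were within a few CPM of each other and above every knockdown sample. IFITM2, at 168.1, 163.7 and 158.5 CPM against 160.5, 179.6 and 173.6, overlapped between groups (0.07, SE 0.046, edgeR adjusted p = 0.35). IFITM1 lies within the annotated span of IFITM2 on the same strand, and the CPM summed over both was 232.1 ± 6.12 in the controls and 228.3 ± 12.6 in the knockdown (SD, n = 3). How reads in the shared span were divided was not given in the sources used here. IFITM3, the most abundant of the 43 genes, was 517.9, 512.4 and 494.9 CPM against 487.1, 504.8 and 503.4 (-0.03, SE 0.032, edgeR adjusted p = 0.58), a value that turned to 0.03 under library size scaling. BST2 had 193.2, 206.1 and 205.5 CPM against 202.9, 214.4 and 227.3 (0.09, SE 0.047, edgeR adjusted p = 0.2), and was called higher under library size scaling (0.15, edgeR adjusted p = 0.038).

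None of the 5 transcription factors passed the test in the edgeR fit with all 6 samples. IRF1, the early factor of the interferon gamma response, did not overlap between groups, at 26.2, 24.0 and 23.2 CPM against 21.6, 20.9 and 21.5 (log2 fold change -0.20, SE 0.072, edgeR adjusted p = 0.077). IRF7, the amplifier of interferon production, also stood apart in the other direction, at 9.73, 8.04 and 9.58 CPM against 11.4, 10.1 and 10.8 (0.24, SE 0.11, edgeR adjusted p = 0.14, and 0.041 with limma on FPKM). STAT2 (-0.06) and SP110 (-0.05) lay near 0, and SP110 turned to 0.001 under library size scaling.

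IRF9, the DNA-binding partner of STAT2, had the widest spread. Its counts were 237, 530 and 132 in the controls and 180, 110 and 168 in the knockdown, so the largest fold change of the 40 genes (-1.12, SE 0.41, edgeR adjusted p = 0.082) came mostly from control 2. A longer gene, AL136295, covers IRF9 on the same strand, and its counts were 1779, 530 and 1984 against 2164, 2546 and 2092. Control 2 was thus high for IRF9 and low for AL136295. The CPM summed over both was 27.9 ± 9.77 in the controls and 35.1 ± 3.93 in the knockdown (SD, n = 3). DESeq2 called IRF9 lower (adjusted p = 0.01), and so did edgeR without control 3 (-1.47, edgeR adjusted p = 0.02); the range over the samples left out was -1.47 to -0.44.

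The remaining genes did not pass the test. PARP9 (0.11) and PARP14 (-0.23), which attach or read ADP-ribose, SAMD9 (0.10) and SAMD9L (-0.35), which restrict poxviruses, and IFI35 (0.10) were not called, with an edgeR adjusted p of 0.14 for PARP14 and higher values for the others. PARP14 was called lower without control 3 (-0.33, edgeR adjusted p = 0.039). IFI27, often among the strongest genes of an interferon signature, was barely expressed at 1.84, 1.65 and 1.61 CPM against 0.970, 1.61 and 2.39 (-0.04, SE 0.31, edgeR adjusted p = 0.95).

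Genes of the same role group that moved apart were also set against each other within a sample, as the log2 ratio of their counts. No scaling of the libraries changes this value. These 5 pairs were chosen after their values were seen, because their genes had moved apart, so the ratios are a description without a test. IFI44 over IFI44L went from 2.80 ± 0.35 in the controls to 3.64 ± 0.058 in the knockdown (SD, n = 3), a difference of 0.84. IFIT1 over IFIT5 went from 2.12 ± 0.040 to 2.92 ± 0.18, a difference of 0.80. The ratio of DDX58 to EIF2AK2 shifted by 0.48, from -2.44 ± 0.18 to -1.95 ± 0.061. OASL over OAS3 (0.37) and IFITM3 over IFITM1 (0.24) shifted less. IFIT1, IFITM1 and EIF2AK2 overlap LIPA, IFITM2 and GPATCH11, so how reads were divided there also enters their ratios.

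**Figure D4:**
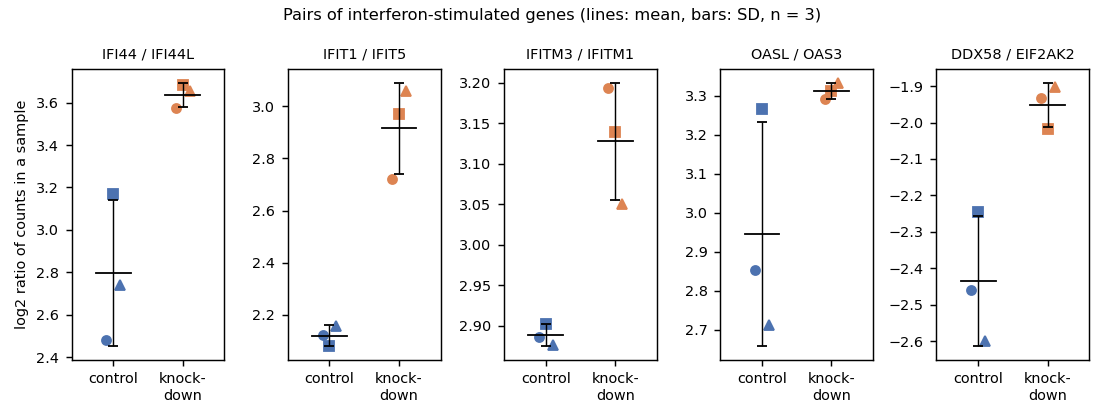
Log2 ratio of the counts of 2 genes of the same role group in the same sample (y axis, own scale in each panel, not starting at 0), for 5 pairs in 3 control and 3 knockdown samples, with the mean as a line and the SD as bars. The knockdown samples lie above the controls in each panel, by 0.84 for IFI44 over IFI44L and by 0.24 for IFITM3 over IFITM1.

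A second list of 82 genes around the pathway was read in the same fit, of which 76 were in the table and 68 were tested. Of the 68, 7 were higher, beside 10.4% of all genes, and 21 lower, beside 12.4% of all genes (41.2% called, beside 22.8%), with a median log2 fold change of -0.11. Under library size scaling the split was 12 higher and 13 lower, beside 2742 higher and 1518 lower over all genes. The interferons themselves were at the edge of detection. IFNB1 had 0, 0 and 11 counts in the controls and 11, 8 and 0 in the knockdown, and IFNL1 had 12, 16 and 11 against 10, 0 and 13. IFNE, with 48, 16 and 29 counts against 70, 57 and 49, overlapped between groups once scaled to depth (0.76, edgeR adjusted p = 0.25). IFNG and 5 other interferon genes of the list were not analysed here.

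Among the receptors, IFNAR2, a chain of the type I receptor, was lower, at 46.2, 47.9 and 47.0 CPM against 41.0, 40.8 and 39.2 (log2 fold change -0.22, edgeR adjusted p = 0.0058). IL10RB, which pairs with the type III receptor, was higher, at 13.4, 12.1 and 10.6 against 14.7, 15.7 and 18.5 (0.44, edgeR adjusted p = 0.024, lost without control 2, control 3, knockdown 2 or knockdown 3 at up to 0.086). The other receptor chain of type I, IFNAR1, was -0.12 (edgeR adjusted p = 0.053, and 0.036 without knockdown 2). The kinases JAK1, JAK2 and TYK2 were not called, though JAK2 (-0.29, edgeR adjusted p = 0.061) was lower without knockdown 2 (edgeR adjusted p = 0.048).

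In the pathways that detect nucleic acids, 2 of 11 tested genes were higher and 5 lower, beside 10.4% and 12.4% of all genes. MAVS, the mitochondrial adaptor of RIG-I, was 74.9, 72.2 and 66.4 CPM in the controls and 87.4, 84.6 and 85.2 in the knockdown (log2 fold change 0.27, edgeR adjusted p = 0.003), and STING1, the adaptor of cytosolic DNA sensing, rose by a similar step (0.31, edgeR adjusted p = 0.015, and 0.051 without knockdown 3). The kinase TBK1 (-0.25, edgeR adjusted p = 0.0037), the RIG-I ubiquitin ligase TRIM25 (-0.38, edgeR adjusted p = 0.00031) and TLR3, the endosomal RNA receptor (-0.78, edgeR adjusted p = 0.022), were lower, TLR3 from 155 to 206 counts in the controls to 98 to 135 in the knockdown. The TLR3 call was lost without control 2, control 3, knockdown 1 or knockdown 3 (edgeR adjusted p up to 0.081). The adaptors MAVS and STING1 were thus higher, while the kinase and the ligase that act with them were lower.

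Of the 7 feedback genes, 5 were lower and 1 higher, beside 12.4% and 10.4% of all genes. SOCS3, an inhibitor of JAK kinases, fell from 95.4, 89.6 and 97.8 CPM to 65.6, 65.3 and 67.6 (log2 fold change -0.51, edgeR adjusted p = 7.1e-05). PIAS1, an inhibitor of the pathway, fell by 0.26 (edgeR adjusted p = 0.0012), and IRF2, a repressor at the ISRE, was -0.47 (edgeR adjusted p = 0.036, up to 0.13 with 1 sample left out, and called only without knockdown 3). PTPN6, a phosphatase of blood cells in the main, rose from 128, 100 and 136 counts to 195, 224 and 276 (0.78, edgeR adjusted p = 0.022), a call lost without control 2, knockdown 2 or knockdown 3 (up to 0.082).

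Of 38 further interferon-induced genes tested, 3 were higher and 10 lower, beside 10.4% and 12.4% of all genes. SLFN5, a Schlafen family nuclear protein, had the largest rise of either list, from 11.9, 10.2 and 9.94 CPM to 19.0, 20.3 and 20.1 (log2 fold change 0.89, edgeR adjusted p = 0.00024). TRIM14 (0.23, edgeR adjusted p = 0.019, and up to 0.057 without knockdown 1 or 2) and SHISA5 (0.15, edgeR adjusted p = 0.02, and up to 0.084 without control 1, control 2, knockdown 1 or knockdown 2) were the other rises. GBP3, a relative of GBP1, was lower (-0.47, edgeR adjusted p = 0.0054), as were the DNA sensor IFI16 (-0.30, edgeR adjusted p = 0.0016) and IFI30, a lysosomal thiol reductase (-0.25, edgeR adjusted p = 0.0019).

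Of the 15 called genes, 5 passed the threshold under each of 15 other ways of processing, IFIT1, IFIT2 and USP18 as higher and IFITM1 and RSAD2 as lower. The 10 others were lost under at least 1 of them, which included the fits without any 1 sample, and none of the 15 changed sign where it was tested (MX1 and IFI44L were below the FPKM minimum of the limma fits). Under library size scaling MX1, IFI6 and IFI44L were lost along with EIF2AK2 (edgeR adjusted p of 0.071, 0.078 and 0.057 for the first 3), and ISG15 and IFI44L were lost once the trend with GC content was removed. The rule of the study was read as an unadjusted p under 0.05 and a log2 fold change of 0.3 or more in size. By it, 5 of the 40 tested genes were higher, beside 9.61% of all genes tested, and 6 were lower, beside 5.88%.

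**Figure D5:**
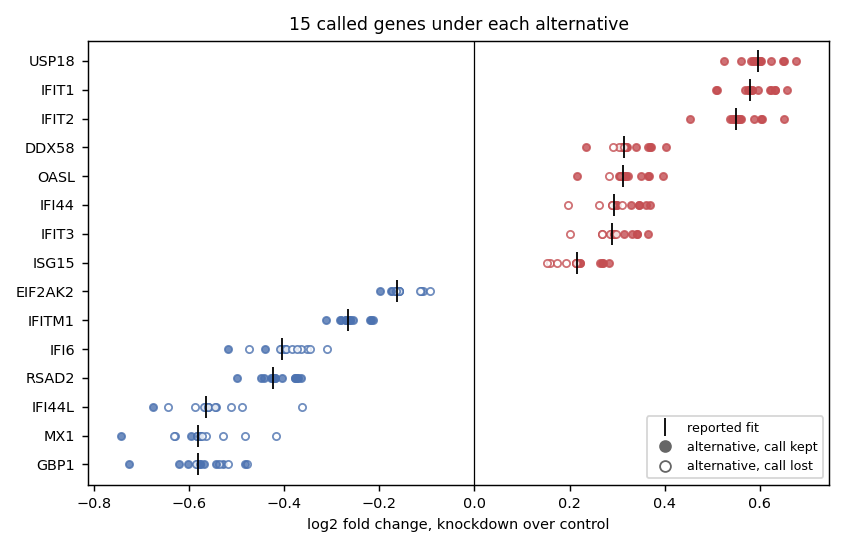
Log2 fold change (x axis) of the 15 called genes in the reported fit (black bar) and under each alternative way of processing (points, filled where the gene stayed below an adjusted p of 0.05 and open where it did not). USP18, IFIT1, IFIT2, IFITM1 and RSAD2 have filled points throughout, and no point crosses 0.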

How the data were processed

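RNA from 3 vector control and 3 ZNF706 knockdown samples of LM3 cells was sequenced by a company on an Illumina NovaSeq system, and reads were mapped with HISAT2 to GRCh38. The submitters' processing notes name cutadapt 1.9 and FastQC. The program that counted reads, its use of strand and the annotation release were not given in the sources used here. Per the file headers, the table deposited by the authors holds raw counts and FPKM per gene and sample, and FPKM, which the authors scaled to transcript length and library size, was used to compare levels between genes. Deposited columns of the authors' own comparison, which hold fold changes and p-values, were not used. Each per-sample column was matched to its sample by name, and 0 such columns were left out.

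From the counts, 18390 of 33007 genes passed filterByExpr, were scaled by TMM and were tested with glmQLFit and glmQLFTest in edgeR 4.0.16 (R 4.3.3), with a term for the group only and Benjamini-Hochberg adjustment over all of them. Standard errors were obtained as the size of the log2 fold change over the root of the F statistic, and the CPM values use the TMM library sizes. A gene was called at an adjusted p below 0.05. The study's methods name DESeq2 with p below 0.05 and an absolute fold change of at least 0.3; this was read here as an unadjusted p and a log2 scale, and was applied to the edgeR fit. At 62684076 to 69057423 counts a sample, the genes with few reads (CMPK2, TRIM22 and XAF1) could not be tested. The chi-square per gene between replicates was 12.8 to 22.2, so no 2 samples were the same library.

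The genes, the pathway list and the marker lists were chosen with earlier results of these data known. Named were ZNF706, each called gene of the 43, the 8 with the highest mean FPKM, and at most the 3 largest called rises and falls in each role of the pathway list, with other members where a role group needed them. Alternatives were DESeq2 1.42.0, its size factors in edgeR, library size scaling, the same fit unfiltered, a minimum mean count of 50, a replicate block, each sample left out, a GC trend removed (loess, span 0.3, GC of the longest GENCODE 29 transcript, 18128 genes) and limma 3.58.1 on log2(FPKM + 0.1) or log2(FPKM + 1), keeping genes whose mean FPKM reached 1. The fits were tested on simulated data. Results of 1 gene of the pathway list are not reported here.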

Additional observations from a re-analysis of the deposited data

How the results depend on the processing

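The direction of the 15 called interferon-stimulated genes held under each of the 15 alternatives that tested them. The number of them that kept their call was 15 with DESeq2, with its size factors in edgeR and with a mean count of at least 50, and 12 with the GC trend removed. It was 11 under library size scaling, where EIF2AK2, MX1, IFI6 and IFI44L were lost, 11 with limma on FPKM, where MX1 and IFI44L were below the FPKM minimum and not tested, 5 without a filter, and 6 to 11 with 1 sample left out. Without a filter the counts were 3 higher and 2 lower (11.6% of 43 genes, beside 9.55% of all genes). All genes then split into 1253 higher and 1737 lower, and the pathway list into 4 higher and 16 lower. Library size scaling gave 9 higher and 3 lower (30% of 40 genes, beside 23.2% of all genes). All genes then split into 2742 higher and 1518 lower, and the pathway list into 12 higher and 13 lower. The median of the 40 genes moved to 0.047. With limma at a pseudocount of 0.1, 9 were higher and 3 lower (38.7% of 31 tested, beside 33.5% of all genes in that fit). All genes then split into 2279 higher and 1539 lower. The median of the 31 genes that reached a mean FPKM of 1 was 0.140 (pseudocount 0.1) or 0.113 (pseudocount 1). The medians of all genes in these fits were 0.027 and 0.023. By the study's criteria 5 of the genes were higher, 1081 of all genes were lower, and 7 of the pathway list were lower. With 1 sample left out, the higher calls ranged from 3 to 8, the lower calls from 2 to 7, the median from -0.020 to 0.077, all genes from 1148 to 1485 higher and 1500 to 1939 lower, and the pathway list from 3 to 6 higher and from 15 to 17 lower. Values that turned sign were all of genes not called, namely DHX58 (-0.029 with the GC trend removed, -0.110 to 0.153 with 1 sample left out), SP110 (0.001 under library size scaling, -0.191 to 0.082), IFITM3 (0.025 under library size scaling, 0.020 with limma), UBE2L6 (0.010, -0.195 to 0.114), IFI27 (0.011, -0.400 to 0.232), OAS3 (-0.130 to 0.006), MX2 (-0.605 to 0.054), SAMD9 (-0.015 to 0.163) and SAMD9L (-0.620 to 0.049). The cause was not tested, other than where fewer genes or samples were left. Genes under about 50 counts a sample, such as MX2, SAMD9L and the interferons other than IFNE (16 to 70 counts), were too shallow for changes of the size seen elsewhere.

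Replicate numbers are shared by the groups, but same-numbered samples did not deviate together (correlations of 0.027, -0.028 and 0.029 over 14125 genes), so they share only a number. With the replicate block, 8 of the interferon-stimulated genes were higher and 6 lower, which kept 13 of the 15 calls, lost MX1 (edgeR adjusted p = 0.055) and IFI6 (edgeR adjusted p = 0.07) and added PARP14 (edgeR adjusted p = 0.037), ZNF706 was at -0.735, and 1967 of all genes were higher and 2394 lower.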
